A study of Mus musculus with 12 samples.

Results

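The methyl cycle enzymes and the RNA methyltransferase METTL16 were followed here as 8 genes: Mat2a, Mat2b, Mettl16, Ahcy, Ahcyl1, Ahcyl2, Mtr and Mtrr. They were chosen by name, from the reactions of the cycle, and all 8 were found by Ensembl identifier among the 12591 genes of the deposited expression table. The cells were C57 PER2::LUC mouse embryonic fibroblasts, which carry a luciferase fused to the clock protein PER2 and had been immortalized according to the study. Confluent dishes received, for 24 h, 3.3 mM HCl alone (CTL), or the same HCl together with 10 μM deazaneplanocin A (DZ, an inhibitor of AHCY), 1 mM adenine, or 1 mM S-adenosylmethionine (SAM). There were 3 dishes in each of the 4 groups, and polyadenylated RNA of each dish gave 1 library. The HCl was therefore present in all 12 dishes, no dish without it was compared, and nothing in the labels says that the dishes came from separate cell lines or isolates, so that p-values measure the spread between dishes of the same cells.

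In the methyl cycle, methionine and ATP are joined to SAM by methionine adenosyltransferase II, whose catalytic subunit is encoded by Mat2a and whose regulatory subunit is encoded by Mat2b. Methyltransferases spend SAM and release S-adenosylhomocysteine (SAH), an inhibitor of the same enzymes, which AHCY hydrolyzes to homocysteine and adenosine. The AHCY-like proteins AHCYL1 (also called IRBIT) and AHCYL2 resemble AHCY but are known for binding other proteins, such as the inositol trisphosphate receptors, rather than for hydrolyzing SAH. Methionine synthase (Mtr) closes the cycle by methylating homocysteine with a folate methyl group and a cobalamin cofactor, and methionine synthase reductase (Mtrr) returns that cofactor to its active state. METTL16 places N6-methyladenosine on U6 small nuclear RNA and on hairpins in the 3′ untranslated region (UTR) of MAT2A mRNA, and is known as a sensor of SAM that acts on the splicing and stability of that mRNA.

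The hairpins recognized by METTL16 share a short motif, and its matches in the mouse are shown because they link the RNA of Mat2a to the other gene of the set that this report turns on. The motif TACAGANAA (N standing for any base, sense strand only) was searched in the canonical GENCODE vM39 transcripts, a different release of the annotation of GRCm39 than the vM27 used by the authors. The canonical Mat2a transcript has 9 exons and a 3′ UTR of 1494 bases, which held 6 matches, at 40, 824, 1003, 1118, 1229 and 1337 bases after the stop codon. They are given below as GRCm39 reference sequence, 5′ to 3′ on the minus strand, with 10 bases on each side in lower case and the motif in capitals.
Site 1, chr6:72411218-72411246: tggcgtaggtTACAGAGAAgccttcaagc
Site 2, chr6:72410434-72410462: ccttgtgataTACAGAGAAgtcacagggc
Site 3, chr6:72410255-72410283: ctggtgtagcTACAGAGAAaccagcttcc
Site 4, chr6:72410140-72410168: atggcgtaagTACAGAGAAgccatcacct
Site 5, chr6:72410029-72410057: caaggtgtccTACAGAAAAaccttgggtt
Site 6, chr6:72409921-72409949: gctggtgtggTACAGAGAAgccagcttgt

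All 6 windows lie in the last exon, and 5 of them share the same motif letters, while the site at 1229 bases has TACAGAAAA. Folded by RNAfold, each window was predicted to pair bases on either side of the motif, with 5 to 9 base pairs and free energies from -10.6 to -4.1 kcal/mol, and in 4 of the 6 all 9 motif bases were left unpaired. Of the 10837 3′ UTRs of protein-coding genes in the table, 841 (7.76%) held at least 1 match. Among the 5203 that were at least as long as that of Mat2a, 5.88% held a match in their first 1494 bases. Mat2a was the only one with 6 matches, and the most in any other 3′ UTR was 4, in 1 gene. The motif is that of the known METTL16 hairpins, which include those of MAT2A mRNA. The high place of Mat2a was therefore given beforehand, and these shares are a description and not a test. The canonical transcripts of the other 7 genes of the set held 0 matches. A match describes letters in the reference and says nothing of methylation, which was not measured in these libraries.

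**Figure D1:**
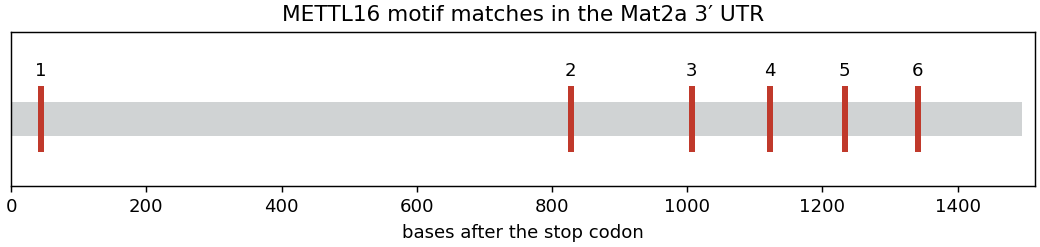
Map of the Mat2a 3′ UTR (gray bar, 1494 bases), with the distance from the stop codon in bases on the horizontal axis and the 6 matches of the METTL16 motif as numbered red marks drawn 9 bases wide. The first match lies 40 bases after the stop codon, and the other 5 lie between 824 and 1337 bases.

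Expression was given as log2 CPM (the base 2 logarithm of CPM, which are reads scaled to a common normalized library size). Whole reads could be recovered from these values, and the reads on listed genes ranged from 45649534 to 56789090 per library. The 8 genes had between 1094 (Mtrr) and 21012 (Ahcyl1) reads in any library, and over all genes the reads of replicate libraries differed by more than counting error alone gives. SAM replicate 3 stood apart, at 19.1 and 15.7 times counting error (chi-square over its degrees of freedom) from the other SAM libraries, against 4.76 to 7.07 for every other pair. Without it the same 7 genes of the set were called under SAM, with log2 fold changes of -1.14 for Mat2a, 0.26 for Mettl16 and -0.30 for Mtr. All 10 fibroblast markers examined were in the table, with summed levels of 23900 to 24400 CPM in CTL, 30400 to 31100 in DZ, 27700 to 30200 in adenine and 19800 to 21100 in SAM. Of these genes 8, 7 and 9 were called higher and 1, 1 and 1 lower under DZ, adenine and SAM. The gene lower under SAM was Fn1 (log2 fold change -1.58), which had the highest level of the list in CTL (13.6 log2 CPM) and so weighs most in the sum. By contrast, none of 5 epithelial and none of 5 endothelial markers was in the table, and of 6 leukocyte markers only Cd68 was listed. The summed level of the leukocyte list, which is Cd68 alone, was 3.03 to 4.0 CPM in CTL, 2.73 to 3.78 in DZ, 10.8 to 12.3 in adenine and 15.6 to 17.7 in SAM. The summed level of 5 proliferation markers, all listed, was 412 to 426 CPM in CTL, 420 to 503 in DZ, 1190 to 1250 in adenine and 1360 to 1450 in SAM, and of these genes 3, 5 and 5 were called higher under DZ, adenine and SAM. Over all genes, 22.6%, 30.6% and 33.7% were called higher under DZ, adenine and SAM, and 23.4%, 31% and 35.7% lower. The part of these marker lists in the results below was not tested. In bulk RNA, fewer cells with a transcript and less of it per cell cannot be told apart.

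Mat2a fell in all 3 treatments and Mettl16 rose in all 3, but the order of the treatments was not the same for the pair. The fall of Mat2a was smallest under DZ and largest under SAM, whereas the rise of Mettl16 was largest under DZ. In a limma model of all 12 libraries, with genes called at a false discovery rate (FDR) under 0.01 over all 12591 genes, 6 of the 8 genes were called under DZ (3 up, 3 down), 6 under adenine (2 up, 4 down) and 7 under SAM (2 up, 5 down). The same model called 45.9% of all genes under DZ, 61.6% under adenine and 69.3% under SAM, and the counts among the 8 genes are to be read against that background. Genes called higher were 22.6%, 30.6% and 33.7% of all genes, and genes called lower 23.4%, 31% and 35.7%. The absolute log2 fold changes of the 8 genes had medians of 0.27 under DZ, 0.19 under adenine and 0.28 under SAM, beside 0.18, 0.27 and 0.34 over all genes. Ahcyl2, Mat2a and Mettl16 were called in all 3 treatments, in a single direction each. The share of all genes called in all 3 was not counted here. These calls therefore describe the single genes and cannot be read as a trait of the set.

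**Figure D2:**
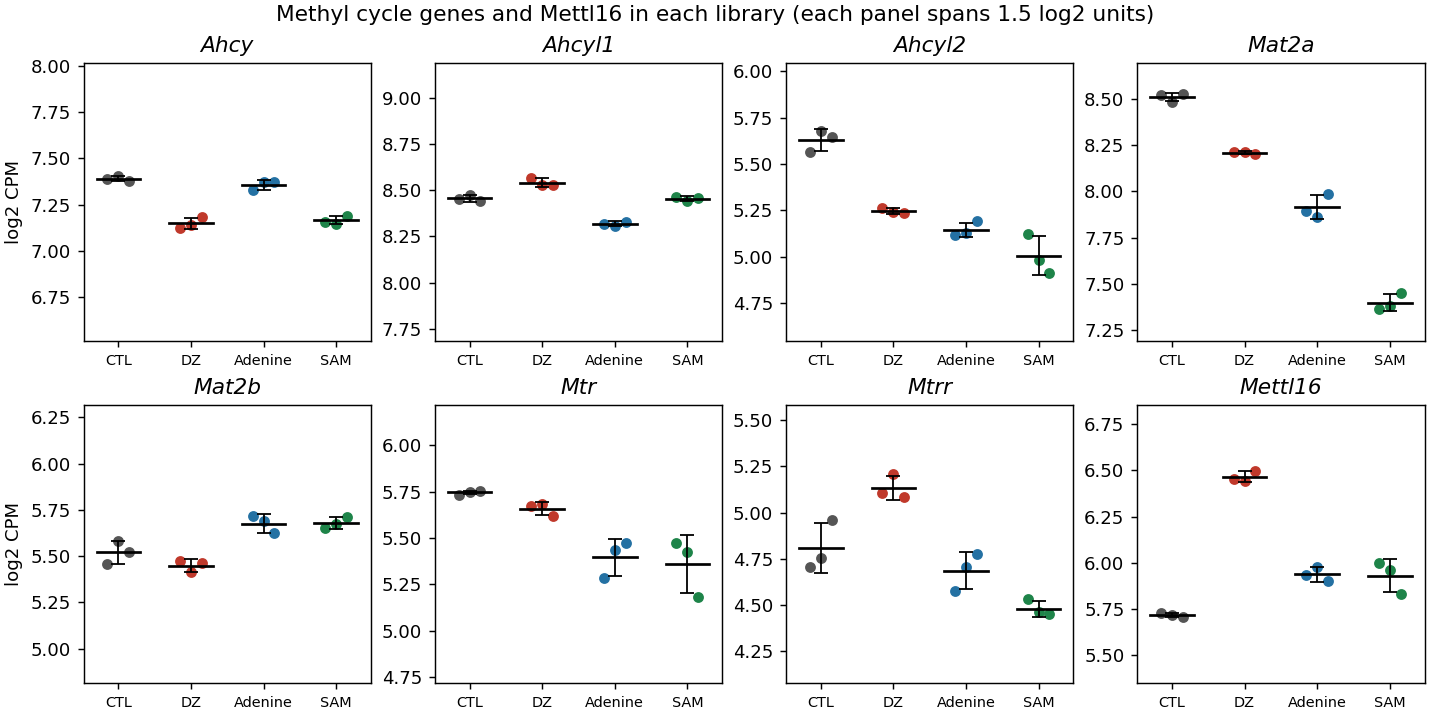
Expression of the 8 genes in every library, with log2 CPM on the vertical axis and the 4 groups on the horizontal axis. Points are dishes, horizontal bars are group means and whiskers are ± 1 SD (n = 3). Each panel spans 1.5 log2 units, so that the drop of Mat2a from 8.51 in CTL to 7.40 in SAM and the rise of Mettl16 from 5.72 in CTL to 6.46 in DZ can be compared by eye.

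Mat2a (chromosome 6, 72409779 to 72416684, minus strand), the gene of the catalytic subunit that makes SAM, was at 8.52, 8.48 and 8.52 log2 CPM in the CTL dishes. It was at 8.21, 8.21 and 8.20 in DZ, at 7.89, 7.86 and 7.99 in adenine, and at 7.36, 7.38 and 7.45 in SAM. The 4 groups followed each other without overlap, in the order CTL, DZ, adenine and SAM. As a linear level it went from 364 ± 5.60 CPM in CTL to 296 ± 1.62 in DZ, 241 ± 10.9 in adenine and 169 ± 5.56 in SAM (mean ± SD, n = 3), that is to 0.812, 0.662 and 0.463 of CTL on the log2 scale of the model. The log2 fold change under SAM was -1.11 (95% interval -1.18 to -1.04, Benjamini-Hochberg adjusted p = 1.21e-13 from limma), and 89.3% of all genes had a smaller absolute change in that comparison. Under adenine the interval was -0.67 to -0.52 and under DZ -0.37 to -0.23, and 77.6% and 71.0% of all genes had a smaller absolute change.

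The values of Mat2a are sums over its transcripts. Its last intron, the eighth (chromosome 6, 72411379 to 72411963, 585 bases), directly precedes the exon that holds the 6 motif matches, and 14 of its 35 annotated transcripts keep that intron in an exon. Spliced and intron-keeping RNA are pooled in the deposited gene values and were not analysed apart here. A processed pseudogene, Gm9523, matches the Mat2a transcript at 95.4% over 1164 bases and could share its reads, and adding its level to that of Mat2a left the log2 fold changes at -0.30, -0.60 and -1.11. On the opposite strand, Ggcx (gamma-glutamyl carboxylase) overlaps the transcript over 560 bases. It had log2 fold changes of 0.51, 0.79 and 0.89 under DZ, adenine and SAM, and the libraries were stranded, although whether strand was used in counting is not given in the sources used here.

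Mat2b (chromosome 11, 40570130 to 40586036, minus strand), which encodes the regulatory subunit, was not called lower in any treatment. It was at 5.46, 5.58 and 5.52 log2 CPM in CTL and at 5.47, 5.41 and 5.46 in DZ, and these ranges overlapped. It was at 5.72, 5.69 and 5.62 in adenine and at 5.65, 5.67 and 5.71 in SAM, every dish lying above every CTL dish. The log2 fold changes were 0.16 under adenine (95% interval 0.067 to 0.24, adjusted p = 0.0034 from limma) and 0.16 under SAM (0.070 to 0.25, adjusted p = 0.00265), and -0.072 under DZ (-0.16 to 0.016, adjusted p = 0.146), which was not called. The calls of these small rises depended on single dishes, but their direction did not. In fits that left out 1 library, the adenine change ranged from 0.12 to 0.19. For SAM the range was 0.13 to 0.19. The adenine call was lost without adenine replicate 1 (0.13) or 2 (0.15) or CTL replicate 1 (0.12) or 3 (0.16), the SAM call was lost without CTL replicate 1 (0.13), and median centring or quantile normalization ended both. Per kb of transcript, the level of Mat2a was 5.68 ± 0.317 times that of Mat2b in CTL, 4.85 ± 0.117 in DZ, 3.38 ± 0.260 in adenine and 2.36 ± 0.0277 in SAM (mean ± SD of the ratio within each library, n = 3).

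Mettl16 (chromosome 11, 74661655 to 74719351, plus strand), the gene of the methyltransferase whose motif was searched above, was at 5.73, 5.72 and 5.71 log2 CPM in CTL. It was at 6.45, 6.44 and 6.50 in DZ, at 5.93, 5.98 and 5.90 in adenine, and at 6.0, 5.96 and 5.83 in SAM. Every treated dish was above every CTL dish and the DZ dishes were above all others, while adenine and SAM overlapped. The level was 52.6 ± 0.400 CPM in CTL, 88.3 ± 1.83 in DZ, 61.3 ± 1.69 in adenine and 61.1 ± 3.65 in SAM (mean ± SD, n = 3). The log2 fold change under DZ was 0.75 (95% interval 0.66 to 0.84, adjusted p = 1.39e-09 from limma), larger in size than that of 95.6% of all genes. Under adenine it was 0.22 (0.13 to 0.31, adjusted p = 1.92e-04) and under SAM 0.22 (0.13 to 0.30, adjusted p = 2.10e-04), sizes that 43.6% and 34.6% of genes fell short of. Leaving out 1 library at a time kept the rise between 0.73 and 0.76 under DZ, 0.20 and 0.24 under adenine, and 0.18 and 0.26 under SAM.

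Set side by side, Mat2a and Mettl16 moved in opposite directions against CTL, but the treatments did not fall on a single line. The ratio of their levels per kb was 30.2 ± 0.535 in CTL, 14.6 ± 0.373 in DZ, 17.2 ± 1.23 in adenine and 12.1 ± 1.15 in SAM (mean ± SD within libraries, n = 3). Across the 12 libraries, which share their 4 groups, Pearson's r of the pair of log2 levels was -0.013. All 3 comparisons share the same CTL dishes.

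**Figure D3:**
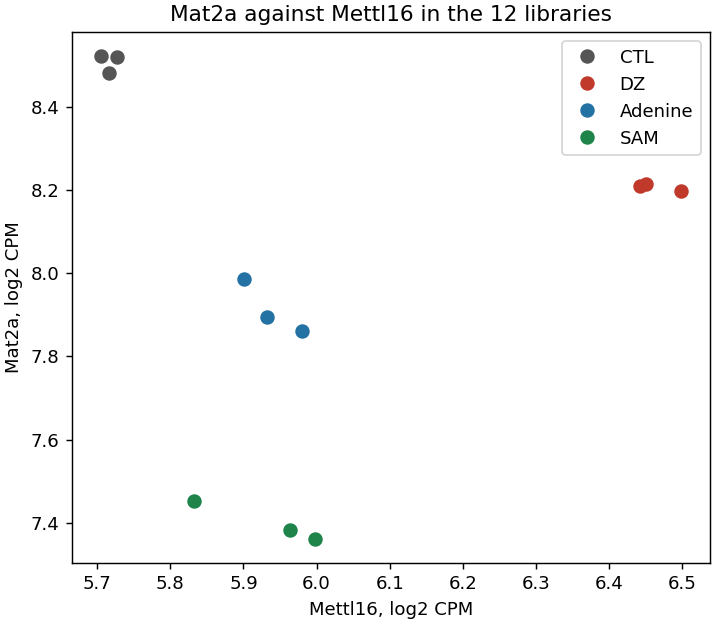
Each of the 12 libraries by its level of Mettl16 (horizontal axis, log2 CPM) and of Mat2a (vertical axis, log2 CPM), colored by group. The CTL dishes sit at the upper left, the DZ dishes far to the right at a Mat2a level of 8.20 to 8.21, and the SAM dishes at the bottom, where Mat2a was between 7.36 and 7.45.

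Among the AHCY family, Ahcy itself was lower under DZ and SAM, Ahcyl2 was lower in all 3 treatments, and Ahcyl1 was slightly higher under DZ and lower under adenine, the latter a direction that turned with quantile normalization. Ahcy (chromosome 2, 154901230 to 154916422, minus strand), the gene of the enzyme that removes SAH and that DZ inhibits, was at 7.39, 7.40 and 7.38 log2 CPM in CTL. It was at 7.12, 7.14 and 7.18 in DZ and at 7.16, 7.15 and 7.19 in SAM, all below CTL. The adenine dishes, at 7.33, 7.37 and 7.37, lay close under the CTL dishes without overlapping them. The level of 168 ± 1.60 CPM in CTL compared with 142 ± 2.98 in DZ, 164 ± 3.00 in adenine and 143 ± 2.15 in SAM (mean ± SD, n = 3). The 95% interval of the log2 fold change was -0.30 to -0.18 under DZ (adjusted p = 2.69e-06 from limma), -0.28 to -0.17 under SAM (adjusted p = 1.82e-06) and -0.091 to 0.026 under adenine (adjusted p = 0.305).

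Reads of Ahcy could be shared with near copies. Ahcyl, annotated as protein-coding, matches the Ahcy transcript at 99.7% over 2086 bases, and the processed pseudogene Gm9826 at 99.2% over 1299 bases. Their log2 fold changes under DZ were -0.25 and -0.28, and under SAM -0.22 and -0.32. Under adenine Ahcyl had -0.053, which was not called, and Gm9826 -0.22, which was (adjusted p = 0.009 from limma). With both added to Ahcy, the sum was 280.2 ± 3.57 CPM in CTL, 236 ± 3.62 in DZ, 269 ± 2.94 in adenine and 238 ± 3.72 in SAM (mean ± SD, n = 3), and Ahcy itself took between 59.9% and 60.9% of it. The log2 fold changes of the sum were -0.25 under DZ, -0.057 under adenine and -0.23 under SAM, with the same calls.

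Ahcyl2 (chromosome 6, 29768010 to 29912309, plus strand) was at 5.56, 5.68 and 5.65 log2 CPM in CTL, 5.26, 5.24 and 5.23 in DZ, 5.12, 5.13 and 5.19 in adenine, and 5.12, 4.98 and 4.91 in SAM. All 9 treated dishes lay below the CTL dishes, and SAM overlapped adenine. The log2 fold changes were -0.38 (95% interval -0.49 to -0.27) under DZ, -0.48 (-0.59 to -0.37) under adenine and -0.63 (-0.73 to -0.52) under SAM, with adjusted p of 1.36e-05, 4.90e-07 and 1.75e-08 from limma. Its relative Ahcyl1 (chromosome 3, 107562255 to 107603950, minus strand) was at 8.45, 8.47 and 8.44 log2 CPM in CTL, 8.57, 8.53 and 8.53 in DZ, 8.32, 8.31 and 8.33 in adenine, and 8.46, 8.44 and 8.46 in SAM. The adenine dishes were below all others and the DZ dishes above all others, while SAM overlapped CTL. The changes were -0.14 under adenine (95% interval -0.19 to -0.085, adjusted p = 1.14e-04 from limma), 0.085 under DZ (0.034 to 0.14, adjusted p = 0.00706) and -7.97e-04 under SAM (-0.052 to 0.051, adjusted p = 0.977).

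The rise of Ahcyl1 under DZ was at the limit of what these data can call, and it was not called after median centring (0.070) or without the variance trend. Its call was lost in every fit without 1 library of either group, where the log2 fold change stayed between 0.072 (without DZ replicate 1) and 0.094 (without CTL replicate 2), and so the number of genes of the set called under DZ was 5 in each of those 6 fits. Its fall under adenine also depended on the scaling, since the call ended with quantile normalization (0.0085, adjusted p = 0.781 from limma) and with plain read totals (-0.075, adjusted p = 0.0129). In these settings 4 and 5 genes of the set were called under adenine, the former also without Mat2b. Under SAM the same settings called Ahcyl1 higher (0.20, adjusted p = 3.11e-06, and 0.12, adjusted p = 3.14e-04), so that its direction against CTL was settled for neither treatment. Per kb, Ahcyl1 was at 1.35 ± 0.00351 times the level of Ahcy in CTL, 1.70 ± 0.0571 in DZ, 1.26 ± 0.0266 in adenine and 1.58 ± 0.0216 in SAM (mean ± SD within libraries, n = 3). These ratios leave out the near copies of Ahcy and would be lower if reads of the copies belong to Ahcy.

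The pair of genes that returns homocysteine to methionine did not move together under DZ. Mtrr (chromosome 13, 68708894 to 68730288, minus strand), the reductase, was at 4.71, 4.75 and 4.96 log2 CPM in CTL and at 5.10, 5.21 and 5.08 in DZ, above every CTL dish. It was at 4.58, 4.71 and 4.78 in adenine, which overlapped CTL, and at 4.53, 4.46 and 4.45 in SAM, below every CTL dish. The log2 fold change was 0.33 under DZ (95% interval 0.18 to 0.47, adjusted p = 7.95e-04 from limma), -0.32 under SAM (-0.47 to -0.18, adjusted p = 4.43e-04) and -0.12 under adenine (-0.26 to 0.025, adjusted p = 0.129). With scaling to plain read totals the fall under SAM was -0.20 and no longer called.

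Mtr (chromosome 13, 12197598 to 12273090, minus strand), methionine synthase, was at 5.73, 5.75 and 5.75 log2 CPM in CTL and at 5.67, 5.68 and 5.62 in DZ. It was at 5.28, 5.44 and 5.47 in adenine and at 5.47, 5.42 and 5.18 in SAM, so that both groups lay below CTL and DZ but spread more widely. The log2 fold change was -0.35 under adenine (95% interval -0.49 to -0.21, adjusted p = 1.81e-04 from limma) and -0.39 under SAM (-0.52 to -0.25, adjusted p = 5.81e-05). Under DZ it was -0.088 (-0.23 to 0.051, adjusted p = 0.26) and not called, although the ranges of the dishes did not overlap. That arrangement held for 65.4% of all genes in the comparison of DZ with CTL, for 74.7% with adenine and for 77.6% with SAM, and for 7, 7 and 7 of the 8 genes of the set.

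**Figure D4:**
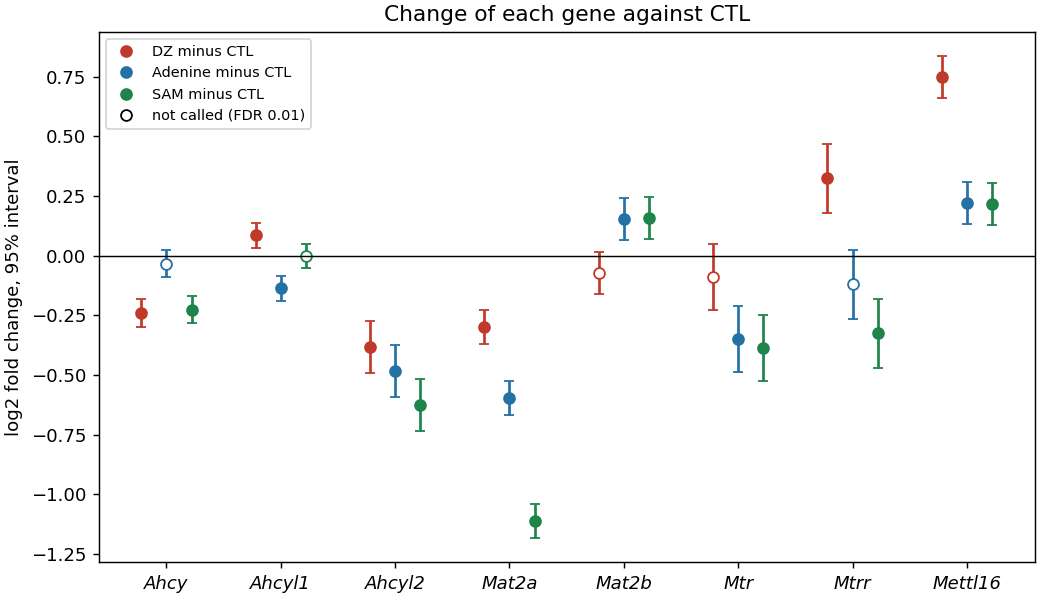
Log2 fold change of each gene against CTL under DZ (red), adenine (blue) and SAM (green), with bars for the 95% interval from limma and open circles for changes not called at an FDR under 0.01. Mat2a steps down from -0.30 to -0.59 and -1.11, Mettl16 stands at 0.75 under DZ and 0.22 under adenine and SAM, and Mtrr lies on opposite sides of 0 under DZ and SAM.

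SAM and adenine were given at the same dose of 1 mM for the same 24 h and could be compared directly. In the same model 3 of the 8 genes differed (1 higher and 2 lower under SAM), beside 42.7% of all genes (20.8% higher and 22% lower). Mat2a was lower under SAM than under adenine by a log2 fold change of -0.52 (95% interval -0.59 to -0.44, adjusted p = 7.58e-09 from limma). Ahcy was also lower under SAM (-0.19, interval -0.25 to -0.13, adjusted p = 2.92e-05), and Ahcyl1 was higher (0.14, interval 0.084 to 0.19, adjusted p = 2.29e-04). The other 5 were not called. Mettl16 differed by -0.0062 (interval -0.094 to 0.082), Mat2b by 0.0027 (-0.085 to 0.091) and Mtr by -0.037 (-0.17 to 0.10), so that differences of that size in either direction remain possible. Ahcyl2 (-0.14, adjusted p = 0.0288) and Mtrr (-0.21, adjusted p = 0.0183) missed the threshold in limma, but Ahcyl2 passed it without SAM replicate 1 (-0.20) and Mtrr without adenine replicate 1 (-0.26).

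DZ was given at 10 μM, a different dose, so its contrasts compare the treatments only as they were applied. DZ differed from adenine in 7 of the 8 genes (5 higher and 2 lower under DZ, beside 64.3% of all genes called, 32.1% higher and 32.2% lower) and from SAM in 7 (6 higher and 1 lower, beside 69%, 35% higher and 34% lower). Mettl16 was higher under DZ than under adenine by 0.53 (95% interval 0.44 to 0.61, adjusted p = 1.64e-08 from limma) and than under SAM by 0.53 (0.44 to 0.62, adjusted p = 9.95e-09). Mtrr was higher under DZ by 0.44 and 0.65, Mat2a by 0.29 and 0.81, and Mtr by 0.26 and 0.30 over adenine and SAM, the difference of Mtr from adenine being lost without adenine replicate 1 (0.20, adjusted p = 0.0142). Ahcyl1 was higher under DZ by 0.22 over adenine and by 0.086 over SAM, and Ahcyl2 by 0.24 over SAM, while its difference of 0.10 from adenine (-0.0088 to 0.21) was not called. The call of Ahcyl1 over SAM was lost without SAM replicate 2 (0.080) or DZ replicate 1 (0.073), without the variance trend (adjusted p = 0.0137 from limma) and with separate models (adjusted p = 0.0226), and its sign turned with quantile normalization (-0.084) or plain read totals (-0.011). The call of Ahcyl2 over SAM was lost with scaling to plain read totals (0.14). Mat2b was lower under DZ than under either, with differences of -0.23 in both comparisons. Ahcy was not called between DZ and SAM (-0.016, interval -0.074 to 0.042, adjusted p = 0.602 from limma), a value that became -0.11 and was called with scaling to plain read totals.

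Levels of different genes were compared only as CPM per kb of canonical transcript. In CTL the order was Mat2a (126 ± 1.94), Ahcyl1 (89.1 ± 1.01), Ahcy (65.8 ± 0.627), Mat2b (22.3 ± 0.950), Ahcyl2 (9.23 ± 0.377), Mtr (6.38 ± 0.0460), Mtrr (6.31 ± 0.602) and Mettl16 (4.18 ± 0.0318), each as the mean ± SD of 3 dishes. Only Mtr and Mtrr overlapped among neighbors in that order. The first 4 genes kept their places under DZ and adenine, although Mat2a (83.7 ± 3.77) and Ahcyl1 (81.1 ± 0.700) overlapped under adenine. Under SAM, Ahcyl1 (89.1 ± 0.714) came before Mat2a (58.5 ± 1.93), which overlapped Ahcy (56.3 ± 0.844). Mettl16 was the lowest of the set in CTL, adenine and SAM, overlapping Mtr under adenine and SAM, but under DZ it reached 7.02 ± 0.145 and stood above Mtr (6.01 ± 0.149). The canonical transcript of Mettl16 is 12584 bases long, and a shorter transcript in these cells would raise its value per kb. The value of Ahcy leaves out its near copies, with which its level in CTL was 280.2 rather than 168 CPM. If those reads belong to Ahcy, its value per kb is too low, so that its place relative to Mat2a and Ahcyl1 is not settled.

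**Figure D5:**
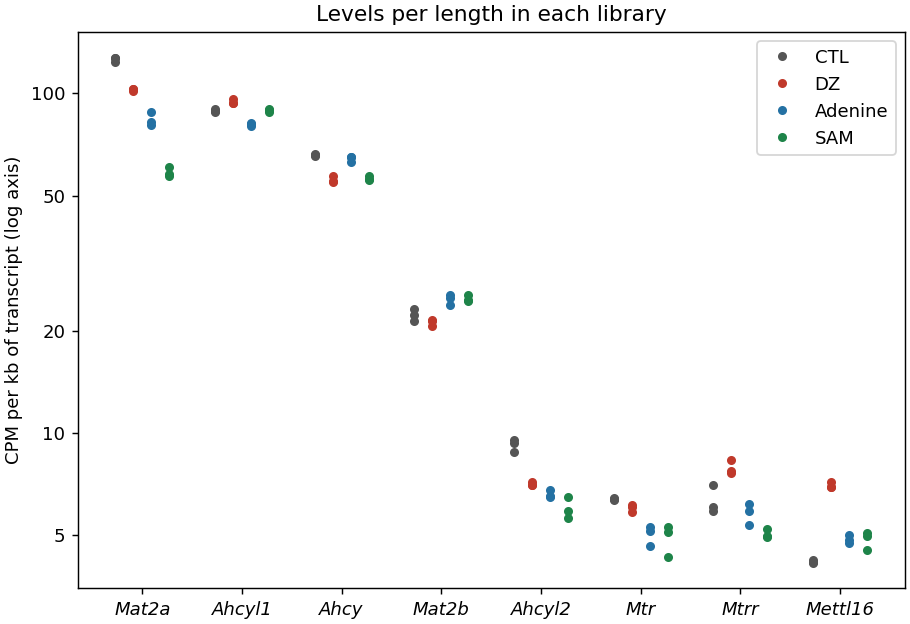
CPM per kb of canonical transcript (log axis) for the 8 genes, ordered by their level in CTL, with 1 point for each of the 3 dishes of CTL (gray), DZ (red), adenine (blue) and SAM (green). The mean of Mat2a is the highest in CTL at 126 and falls to 58.5 in SAM. The mean of Mettl16, at the right, lies above that of Mtr under DZ only, and the dishes of these genes overlap under adenine and SAM.

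For the supply of remethylation with folate and cobalamin, of 15 names 13 were in the table, and the betaine-dependent enzymes Bhmt and Bhmt2 were not. Called up and down were 7 and 1 of these under DZ, 6 and 4 under adenine, and 5 and 4 under SAM. That makes 8, 10 and 9 of 13, beside 45.9%, 61.6% and 69.3% of all genes called, with median log2 fold changes of 0.23, 0.18 and 0.067 beside -0.0057, -0.0030 and -0.015 over all genes. The mitochondrial folate enzymes Mthfd1l and Shmt2 changed by -1.86 and -1.37 under SAM (adjusted p = 1.72e-15 and 2.07e-14 from limma). Mthfd1l had -0.37 under adenine, which was called, and -0.014 under DZ, which was not, and Shmt2 rose by 0.34 under DZ and had 0.089 under adenine (adjusted p = 0.0325, not called).

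Of 10 names for other uses of SAM and for the removal of homocysteine and adenosine, 7 were in the table, while the liver enzymes Mat1a and Gnmt and the transsulfuration enzyme Cbs were not. Called up and down were 2 and 0 with DZ, 2 and 4 with adenine, and 1 and 4 with SAM. That makes 2, 6 and 5 of 7, beside 45.9%, 61.6% and 69.3% of all genes called, with medians of 0.14, -0.48 and -0.49. Cth, which makes cysteine from cystathionine, had the largest change of this list, with a log2 fold change of -3.15 under SAM and -1.02 under adenine, against 0.080 under DZ, which was not called (adjusted p = 0.188 from limma). Gamt, which uses SAM to make creatine, rose by 1.16 with adenine and by 1.53 with SAM, and Nnmt, which methylates nicotinamide, had -0.70 and -1.03. Neither was called under DZ (0.036 and 0.14).

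A list of 4 nuclear factors that act on MAT2A mRNA besides METTL16 was chosen by name, without a claim to be complete, and all 4 were in the table. Of these, 1 was lower under DZ, 1 was lower under adenine, and 1 was higher and 1 lower under SAM, smaller shares than the 45.9%, 61.6% and 69.3% of all genes called, with medians of -0.093, 0.039 and 0.075. Cpsf6, a subunit of the cleavage factor CFIm, was the one that fell, with log2 fold changes of -0.30, -0.61 and -0.72 under DZ, adenine and SAM (adjusted p = 3.76e-06, 3.38e-10 and 3.63e-11 from limma). Cpsf7, another CFIm subunit, rose by 0.12 under SAM (adjusted p = 0.00343), and Nudt21, the subunit that binds RNA, was not called in any treatment (-0.10, 0.092 and 0.11). Ythdc1, a nuclear reader of N6-methyladenosine, was not called either (-0.086, 0.0038 and 0.039).

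Of the 6 listed partners of the AHCY-like proteins, all in the table, the model called 1 up and 1 down under DZ, 2 up and 2 down under adenine, and 1 up and 2 down under SAM. That makes 2, 4 and 3 of 6, beside 45.9%, 61.6% and 69.3% of all genes called, with medians of -0.14, 0.17 and -0.059. Rrm1, a subunit of ribonucleotide reductase that also serves DNA synthesis, rose by 0.48, 1.18 and 1.63 under DZ, adenine and SAM. The inositol trisphosphate receptor genes Itpr2 and Itpr3 changed by -0.95 and -0.38 under adenine and by -1.46 and -0.58 under SAM, and neither was called under DZ (-0.20 and -0.13, adjusted p = 0.0361 and 0.0268 from limma).

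The genes whose levels followed each member most closely were sought by Pearson's r over the 12 libraries, a description without a test, since the libraries share 4 groups and many genes follow any such pattern. Closest to Mat2a were the long noncoding RNA AI115009 (0.995), Ypel3 (0.994) and Ogt (0.994), the gene of the O-GlcNAc transferase, whose mean went from 9.55 log2 CPM in CTL to 8.99 in DZ, 8.59 in adenine and 7.57 in SAM. Closest to Mettl16 were Trim26 (0.984), Nolc1 (0.983) and Fhdc1 (0.979), and Trim26 went from 6.15 log2 CPM in CTL to 6.75 in DZ, 6.28 in adenine and 6.31 in SAM. Ahcy was followed by its near copy Ahcyl (0.979), Stx12 (0.966) and Tmem147os (0.963), Ahcyl1 by Sh3bp2 (0.986) and Fuca2 (0.979), and Ahcyl2 by AU022252, Armc9 and Gm21781 (0.982 each). Mat2b was followed by L3mbtl3 (0.965), Eva1a (0.963) and Crip2 (0.962), Mtr by Golga4 (0.973), the pseudogene Gm6451 (0.972) and Hnrnpu (0.971), and Mtrr by Epc1 (0.983), Ccdc86 (0.965) and Snx33 (0.964). No member was among the 3 closest genes of another member. Within the set the highest r was 0.887, between Mat2a and Ahcyl2, and the lowest was -0.859, between Mat2b and Mtrr.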

How the data were processed

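Libraries were made with a stranded poly(A) kit from 12 dishes. According to the paper and the submitters' processing notes, the authors trimmed reads with Trimmomatic, aligned them to GRCm39 (GENCODE vM27) with HISAT2, quantified them with StringTie, and used edgeR after keeping genes at 1 CPM or more in every sample. Values deposited by the authors are log2 CPM on normalized library sizes, 1 column per library. Versions and the scaling method are not given in the sources used here.

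The deposited values were tested with limma 3.58.1 (R 4.3.3), with a variance trend, 1 model of 4 groups and 6 contrasts, and Benjamini-Hochberg adjustment over all genes at an FDR under 0.01. The model was also run on simulated data with independent normal noise and 200 changed genes in each treatment. Far more genes were called in the real data, so that run does not show how the model performs on them. Reads were recovered by solving for each library size with a prior count of 2, and 100% of values were whole within 0.01. StringTie reads are estimates from coverage, and intervals and depths cover these libraries only. Symbols and lengths come from GENCODE vM39 (12575 of 12591 identifiers matched), near copies from blastn 2.17.0 (at least 90% identity over 200 bases) and folds from RNAfold 2.7.2. Python 3.11.15 was used otherwise.

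The members and lists were chosen with earlier results of these data known. Named beside the 8 members are up to 3 genes of each of 4 lists with the smallest adjusted p, the 3 genes with the highest r to each member, near copies and overlapping genes found by sequence, and Ythdc1, which was added after its values were seen. Some genes picked by this rule are not reported here. A search for member symbols followed by -ps found 0 genes. Alternatives were no variance trend, robust fitting, filters on low values, quantile normalization or median centring, an FDR of 0.05, a pseudocount of 1 CPM, separate models, a replicate block, and leaving out each library. Voom, plain read totals, protein-coding genes only, and the addition of near copies were chosen after seeing the data.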

Additional observations from a re-analysis of the deposited data

How the results depend on the processing

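The fall of Mat2a and the rise of Mettl16 kept their direction and their call against CTL under every alternative run, with log2 fold changes between -1.15 and -0.97 for Mat2a and between 0.18 and 0.34 for Mettl16 under SAM, and between 0.71 and 0.77 for Mettl16 under DZ. The number of genes of the set called moved by more than 1.5 times once, with an FDR of 0.05, which called 5 of the 8 between SAM and adenine. Other alternatives gave between 5 and 6 under DZ, 4 and 6 under adenine, and 6 and 7 under SAM. Calls of single genes lost or gained are given beside the genes, and the cause was not tested. Plain read totals moved the all-gene median under SAM to 0.106 (log2), from -0.015.

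Some differences changed sign, among them those of Ahcyl1 under adenine and between DZ and SAM, which had been called. The others had not been called. Median centring gave 0.0061 for Mettl16 between SAM and adenine and 0.0084 for Ahcy between DZ and SAM. Quantile normalization gave 0.0080 for Ahcy under adenine, 0.0085 (no longer called) and 0.20 (called) for Ahcyl1 under adenine and SAM, -0.0011 for Mat2b between SAM and adenine, and -0.084 for Ahcyl1 between DZ and SAM, which was called in that direction. Plain read totals gave 0.029 for Ahcy under adenine, 0.12 (called) for Ahcyl1 under SAM, 0.024 for Mtr and 0.054 for Mettl16 between SAM and adenine, and -0.011 for Ahcyl1 between DZ and SAM. Leaving out 1 library gave ranges that spanned 0 for Ahcyl1 under SAM (-0.0074 to 0.0084) and, between SAM and adenine, for Mat2b (-0.024 to 0.024), Mtr (-0.093 to 0.052) and Mettl16 (-0.039 to 0.043).

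Between libraries of the same replicate number, after removing group means, Pearson's r across genes lay between -0.142 and 0.181. Libraries of different numbers were not compared in this way, so that a batch shared by number cannot be told from these values. With the replicate block, 6, 6 and 7 genes were called under DZ, adenine and SAM, and 3 between SAM and adenine, as without it.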
